A study of Mus musculus with 31 samples.

Results

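The transporters described here are the mouse genes of 9 solute carrier families that move sugars, amino acids, phosphate and related small solutes across membranes. They are the Slc2, Slc3, Slc5, Slc6, Slc7, Slc20, Slc34, Slc36 and Slc38 families. The rule used name and level. A gene entered when its symbol began with one of these family names and it had at least 10 counts in at least 5 of the 31 kidneys. Of 85 symbols with a matching name, among 23509 genes in the count files, 65 met the rule. The Slc7a15 gene, with 10 counts in 3 mice, was the nearest gene below the limit, and Slc7a11, with 15 mice, was the nearest above it. Among the 65 were 63 transporter genes and 2 genes that share only a name, Slc7a6os and Slc2a4rg-ps. Kidney polyA RNA came from 3 groups of mice. PBS was injected subcutaneously into 12 Pcy/CD1 mice, and RGLS4326 at 25 mg per kg was injected into 14 Pcy/CD1 mice. In both groups injections ran from 5 weeks of age for 25 weeks, and kidneys were taken at 30 weeks. The paper gives its Pcy/CD1 mice as male. The labels list PBS as weekly and the protocol text lists both agents as monthly. If the schedules differed, injection frequency and drug cannot be told apart between PBS and treated mice. The third group held 5 untreated male wild-type CD1 mice of the same age, which received no injection, so the pcy genotype and the injections cannot be told apart between wild type and PBS. Pcy/CD1 mice carry the recessive pcy mutation in every cell, on the outbred CD1 background, and develop kidney cysts slowly. RGLS4326 is a short, chemically modified antisense oligonucleotide that binds the seed of microRNA miR-17 and its relatives.

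In the healthy kidney, cells of the proximal tubule take glucose, amino acids and phosphate back from the filtered fluid. Sodium-coupled carriers in the apical brush border, driven by the sodium gradient across the membrane, bring each solute into the cell, and carriers in the basolateral membrane pass it on to the blood. Loss of single carriers of this kind causes inherited wasting disorders, such as renal glucosuria, cystinuria, Hartnup disorder and phosphate wasting. Most other cells take up sugars and amino acids for their own use through other members of the same families.

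Gene counts per mouse ran from 14892524 to 27459962. Levels are given as CPM, counts per 1e6 after TMM scaling of each library. Whole kidney was sequenced, so fewer cells of a type and less RNA per cell cannot be told apart. All 18 proximal tubule markers outside the transporter families were present, and their summed level was 47504 to 54748 CPM in wild type, 14714 to 29499.9 CPM with PBS and 20473 to 47767 CPM with RGLS4326. The highest of the treated values belonged to mouse 9, which stood apart from the other treated mice. Of the 65 members, 35 lay within the wild-type range in that mouse, against 11 to 22 in each of the other 13 treated mice and 6 to 18 in each PBS mouse. Its summed macrophage markers (182 CPM), injury markers (13.1 CPM) and collecting duct markers (960.4 CPM) also lay within the wild-type ranges, while its fibroblast markers (268 CPM) lay above theirs (167 to 235 CPM). Treatment calls and the values of the main carriers are therefore also given without mouse 9. Counts of wild-type mice 3 and 4 differed little, with a chi-square per gene of 2.85 where the other wild-type pairs gave 16.4 to 24.4, but by more than sampling noise (about 1), and both mice were kept. Sample numbers in the library names restart within each group and so form 3 index series, whose meaning the labels do not give and which hold 4, 4 and 4 PBS mice, 4, 5 and 5 treated mice and 2, 2 and 1 wild-type mice.

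RGLS4326 acts on a microRNA family whose members share a seed, bases 2 to 8, shown in capitals because it is the stretch that pairs with target mRNAs. The mature sequences are from RefSeq on GRCm38.
miR-17: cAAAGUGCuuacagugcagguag
miR-20a: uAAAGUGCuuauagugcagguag
miR-93: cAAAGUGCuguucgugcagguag
miR-106b: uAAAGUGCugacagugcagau
A seed match, GCACTTT on the sense strand, was found in the longest annotated 3′UTR of 8 of the 64 members that have a 3′UTR (12.5%), against 13.9% of 14430 genes tested. The 4 members with the longer match, called an 8mer because an A follows the seed match, are shown with the match in capitals and the position of its first 7 bases.
Slc5a10, 8mer, GRCm38 chr11:61672812-61672818, minus strand: tttcaaaaataGCACTTTAaacaaagtcag
Slc36a1, 8mer, GRCm38 chr11:55235792-55235798, plus strand: aatacttgaagGCACTTTAgtcctgctggc
Slc2a4, 8mer, GRCm38 chr11:69943303-69943309, minus strand: tttcctctacaGCACTTTAgccctctcttc
Slc7a2, 8mer, GRCm38 chr8:40920788-40920794, plus strand: caactttagcaGCACTTTAacaggttgggt
The other 4 members, Slc6a15, Slc6a9, Slc7a1 and Slc7a11, hold the shorter 7mer match. The site of Slc7a1 is shown because its mRNA differed between treatment groups.
Slc7a1, 7mer-m8, GRCm38 chr5:148330787-148330793, minus strand: ccaccgtccagGCACTTTgtctcctaggct
A match is a property of the sequence and does not show that the microRNA binds there.

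Set against wild type, which addresses how cystic disease bears on these carriers, kidneys of PBS-injected Pcy/CD1 mice differed in most members, and lower levels were more frequent than higher ones. Of 65 members tested, 35 fell (36.6% of all 15185 genes tested fell) and 21 rose (37.7% of all genes rose) at an adjusted p under 0.05 in edgeR's quasi-likelihood test. The median log2 fold change was −0.35 over the members and 0.01 over all genes tested. With a change beyond 0.5 on the log2 scale also required, 26 members fell and 13 rose, where 17.8% and 24.6% of all genes did. Slc36a2 and Slc7a11 reached 10 counts in no wild-type mouse and met the rule only through Pcy mice, where they had to be higher. Without them, 19 of 63 members rose and 35 fell, or 11 and 26 beyond that size. Slc2a6 and Slc7a3 reached 10 counts in 3 and 2 wild-type mice, so they too needed Pcy mice to meet the rule. Both were kept in these counts. In 26 members each of the 12 PBS mice lay below each wild-type mouse, as in 21.9% of all genes. In 6 members each PBS mouse lay above each wild-type mouse, as in 20.3% of all genes. Summed over the 65 members, CPM went from 15941 to 17562 in wild-type mice to 6717 to 11368 in PBS mice, and no mouse of one group lay within the range of the other. The fold changes are plotted by role.

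**Figure D1:**
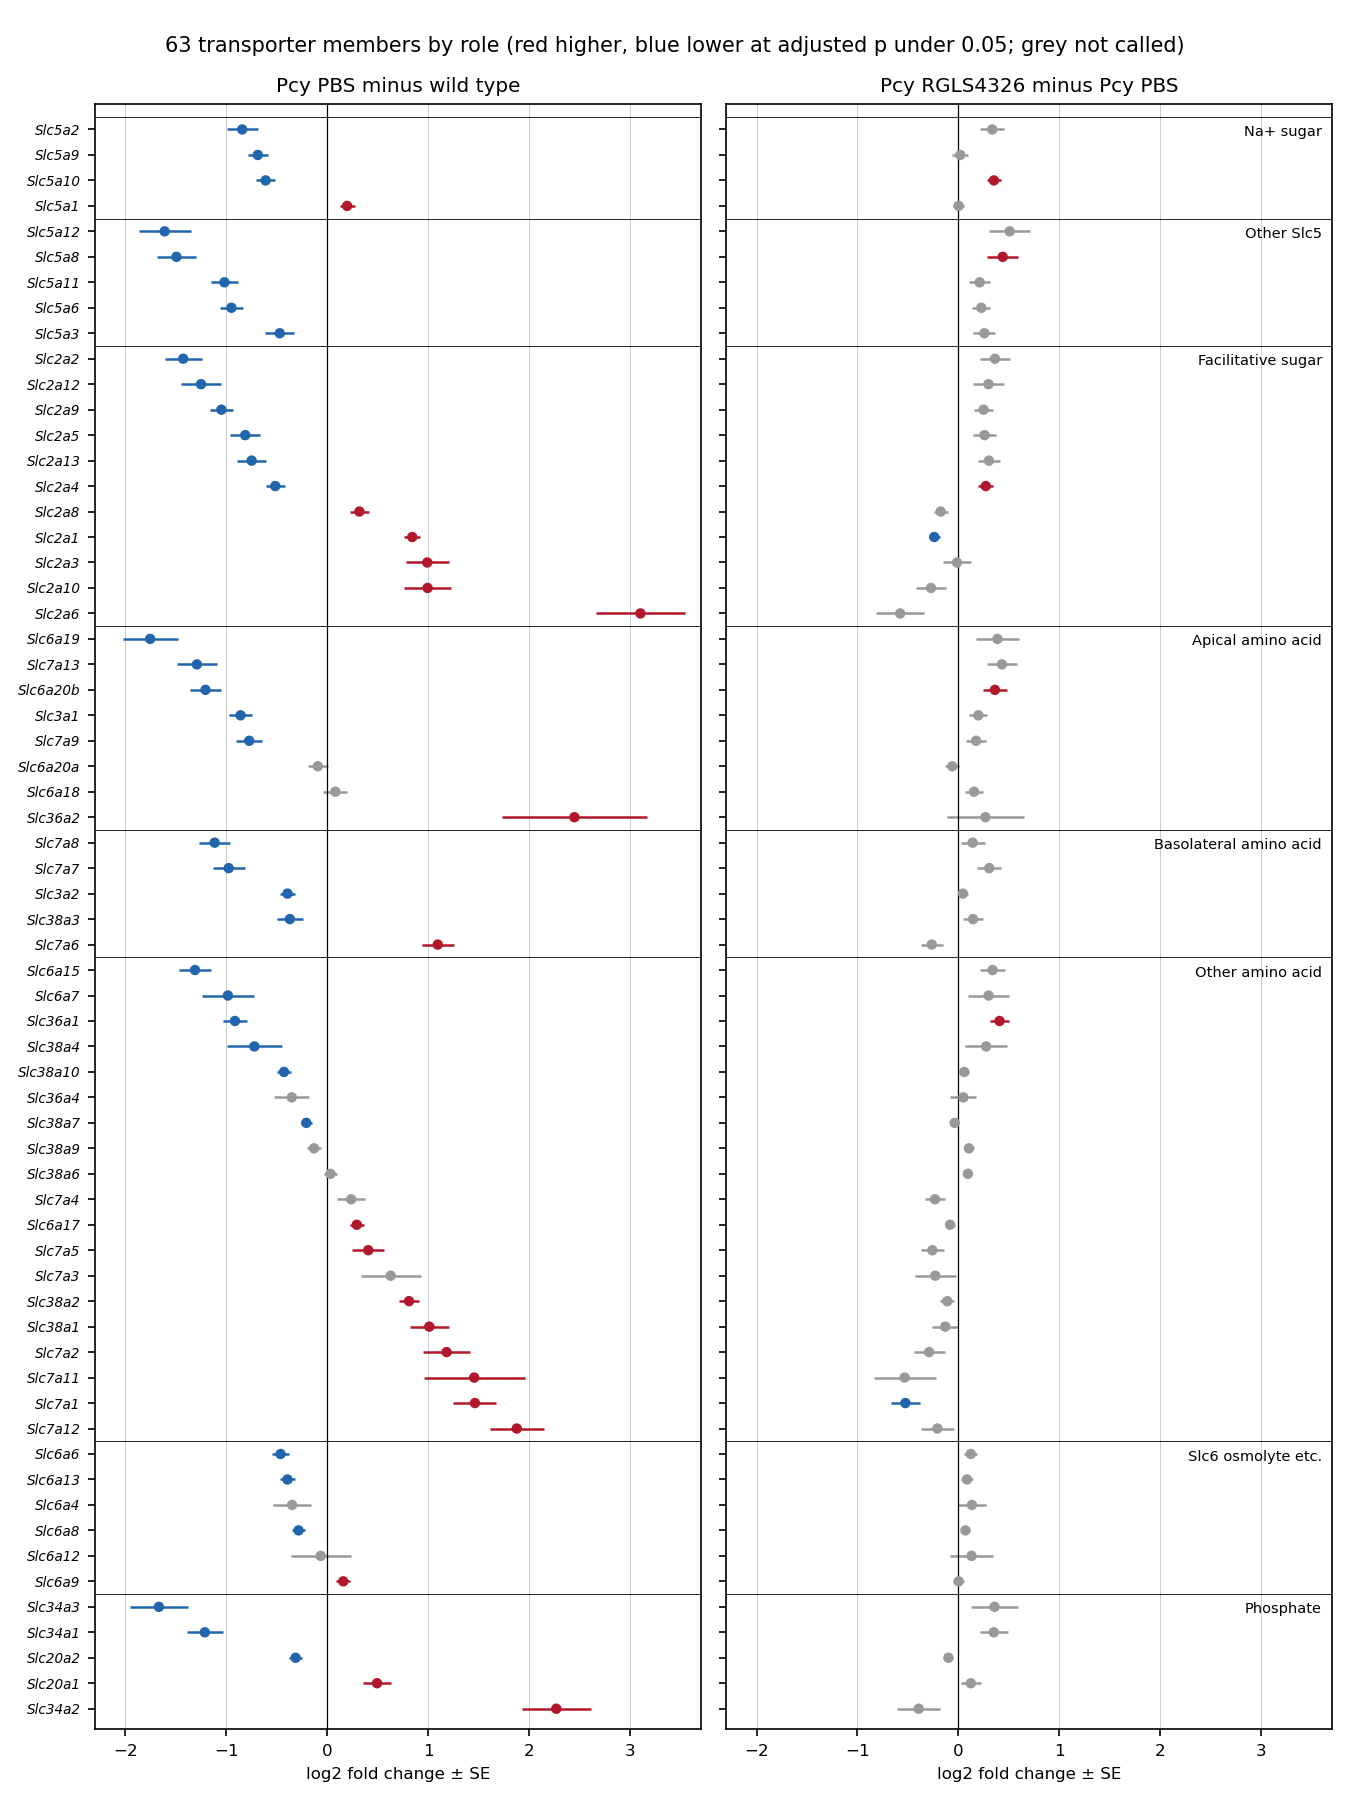
Log2 fold change with its SE for the 63 transporter members, grouped by role, for PBS against wild type (left) and RGLS4326 against PBS (right). Red and blue points passed an adjusted p under 0.05 and grey points did not; the left panel runs from −1.76 for Slc6a19 to 3.10 for Slc2a6, and in the right panel 7 points are coloured.

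The order of members by level, in CPM per kilobase of exon, was led in wild type by Slc34a1 (1624 CPM per kb), Slc7a13 (582), Slc3a1 (424), Slc5a2 (203) and Slc6a18 (185). The sodium-phosphate cotransporter Slc34a1 alone held 44.3 to 46.7% of the members' summed CPM in wild-type mice, 31.1 to 41.02% in PBS mice and 34.4 to 45.8% in treated mice. Without Slc34a1 the summed level was 8707 to 9358 CPM in wild type, 4625 to 6829.9 CPM with PBS and 5253 to 8316 CPM with RGLS4326.

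**Figure D2:**
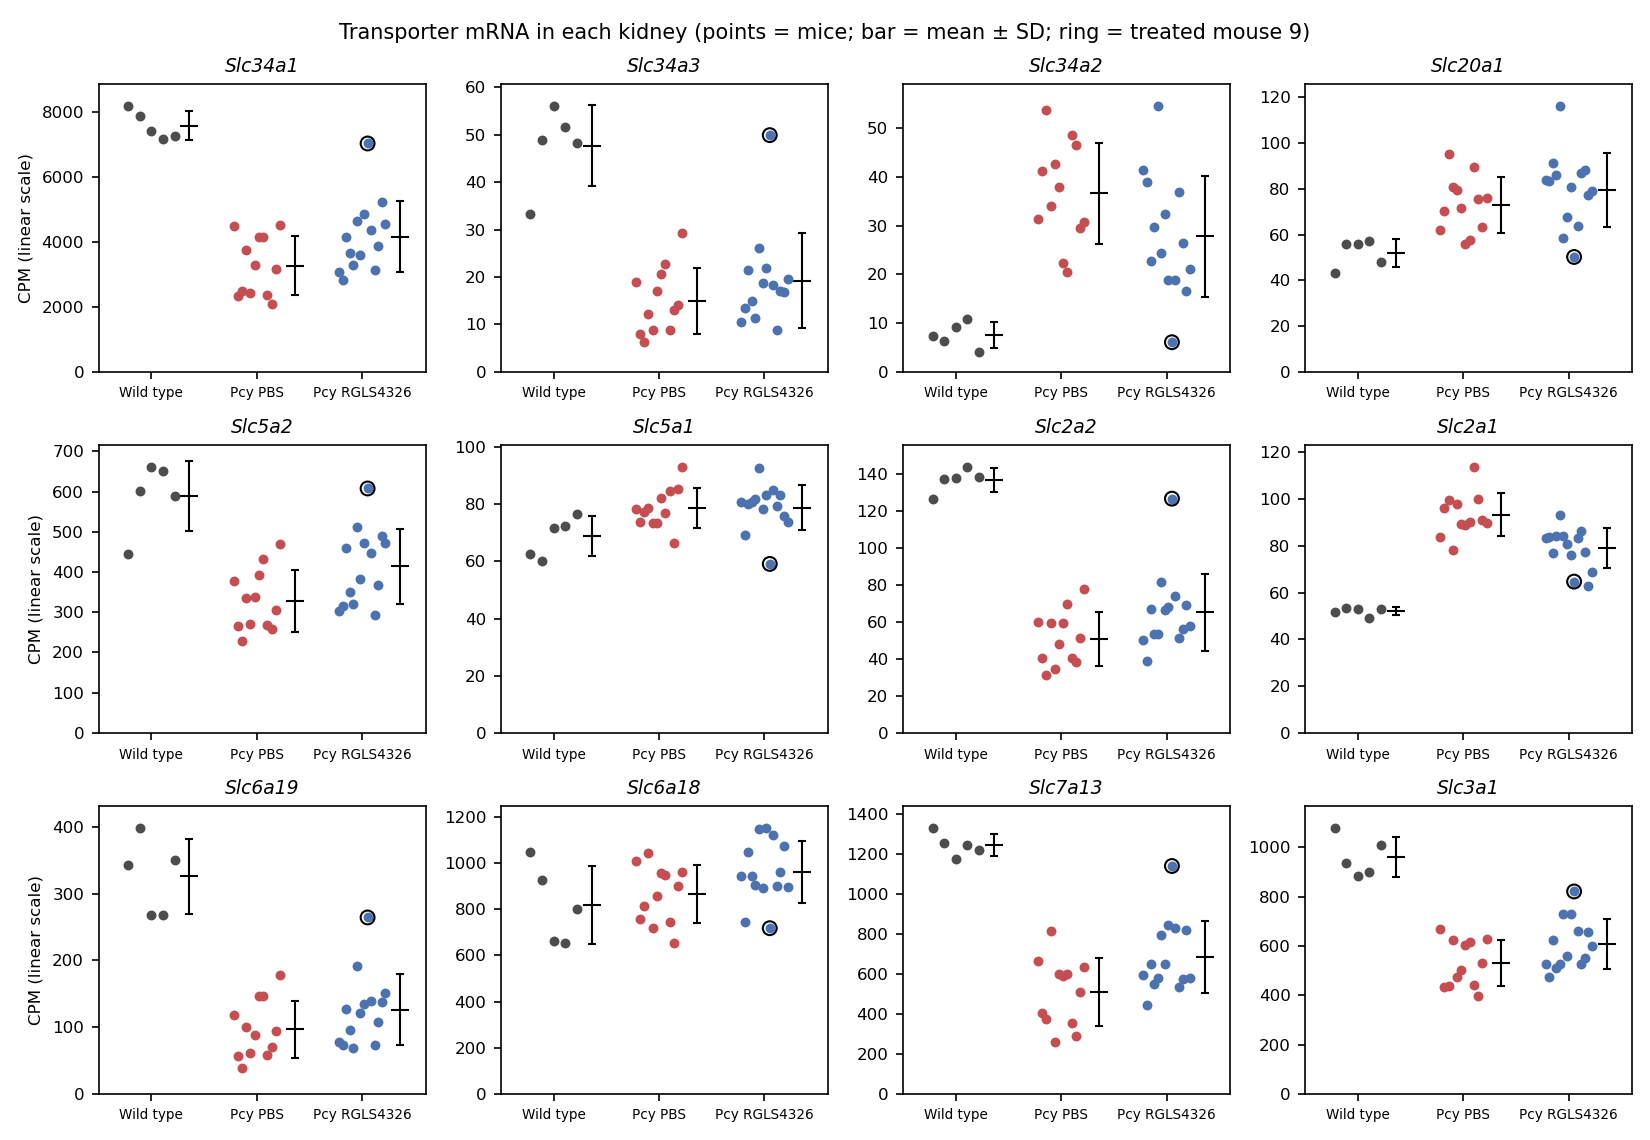
CPM of 12 members in each kidney (linear axes from 0), a point per mouse, with the mean and SD beside each group; the ring marks treated mouse 9. Slc34a1 lies at 7179 CPM or above in wild type and at 4538 CPM or below with PBS, while the ranges of Slc6a18 overlap in all groups.

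Phosphate is recovered mainly by Slc34a1 (NaPi-2a) and Slc34a3 (NaPi-2c), the brush-border cotransporters that respond to parathyroid hormone and FGF23. Of the 5 phosphate cotransporters, 3 fell and 2 rose in Pcy kidneys. Slc34a1 (chr13:55398187-55415592, plus strand) read 8203, 7900.3, 7416, 7179 and 7279 CPM in wild-type mice 1 to 5 and 2091 to 4538 CPM (median 3231) in PBS mice (log2 fold change −1.21, SE 0.18, adjusted p = 5.7e-07). The groups did not overlap, and the highest PBS mouse stood well below the lowest wild-type mouse. Slc34a3 went from 33.4, 48.8, 56.1, 51.6 and 48.3 CPM to 6.39 to 29.4 CPM (median 13.6) (log2 fold change −1.67, SE 0.29, adjusted p = 8.1e-06), again without overlap. Slc34a2 (NaPi-2b), the form known from intestine and lung, moved the other way. It read 7.37, 6.41, 9.23, 10.9 and 4.09 CPM in wild type and 20.5 to 53.7 CPM with PBS (mean 36.6, SD 10.4) (log2 fold change 2.27, SE 0.34, adjusted p = 8.4e-07), so that every PBS mouse was above every wild-type mouse. The housekeeping phosphate carriers of the Slc20 family differed less and in opposite directions. Slc20a1 (Pit1) rose from 51.98 ± 6.03 CPM (SD, n = 5) to 73.05 ± 12.2 CPM (SD, n = 12), with overlapping ranges (log2 fold change 0.49, SE 0.14, adjusted p = 0.00197). Slc20a2 (Pit2) fell from 76.5 ± 4.86 CPM (SD, n = 5) to 61.5 ± 4.56 CPM (SD, n = 12), without overlap (log2 fold change −0.31, SE 0.07, adjusted p = 9.4e-05). As a share of the 5 genes' CPM per kb, Slc34a1 made up 97.1 to 97.9% in wild-type mice and 92.1 to 96.4% in PBS mice. Slc34a2 made up 0.0511 to 0.137% and 0.442 to 1.92%, so it remained a minor species in these kidneys.

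Sodium-coupled glucose uptake falls mainly to Slc5a2 (SGLT2) in the early proximal tubule and to Slc5a1 (SGLT1) further along. Of the 4 sodium-coupled sugar cotransporters, 3 fell and 1 rose. Slc5a2 (chr7:128265657-128272430, plus strand) read 445, 601, 662, 650.0 and 588 CPM in wild type and 228 to 469 CPM (median 320.4) with PBS (log2 fold change −0.84, SE 0.16, adjusted p = 1.8e-05). The ranges met because wild-type mouse 1 lay below the highest PBS mouse, and 11 of 12 PBS mice were below every wild-type mouse. Slc5a1 did not fall with it. It read 62.5, 60.2, 71.8, 72.4 and 76.6 CPM in wild type and 66.3 to 93.1 CPM (median 77.8) with PBS, a small rise with overlapping ranges (log2 fold change 0.20, SE 0.07, adjusted p = 0.0194), and the call was lost without wild-type mouse 1 (adjusted p = 0.0647) or mouse 2 (adjusted p = 0.0782). Slc5a10 (SGLT5), which carries mannose and fructose, read 253, 231, 266, 255 and 260.3 CPM and 119 to 195 CPM (median 169), without overlap (log2 fold change −0.61, SE 0.09, adjusted p = 1.4e-06). Its exons lie within a locus shared with Fam83g and Grap on the other strand, and whether counting used strand is not given in the sources used here. Slc5a9 (SGLT4), a mannose carrier, fell from 29.9 ± 4.14 CPM (SD, n = 5) to 18.6 ± 2.86 CPM (SD, n = 12) (log2 fold change −0.69, SE 0.10, adjusted p = 6.2e-07).

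The other Slc5 cotransporters carry lactate and other monocarboxylates, inositol and vitamins, and all 5 fell. Slc5a12 and Slc5a8, the sodium-coupled monocarboxylate carriers of the brush border, had the largest falls of this group. Slc5a12 read 414, 511, 402, 437 and 493 CPM in wild type and 62.4 to 258 CPM (median 147) with PBS (log2 fold change −1.61, SE 0.26, adjusted p = 2.2e-06). Slc5a8 (chr10:88885992-88929515, plus strand) read 309, 304, 358, 381 and 350.5 CPM and 65.1 to 202 CPM (median 131) (log2 fold change −1.50, SE 0.20, adjusted p = 1.1e-07). In neither did the groups overlap. Slc5a11, an inositol cotransporter, fell by 1.02 on the log2 scale (SE 0.14) and Slc5a6, the multivitamin carrier, by 0.95 (SE 0.12). Slc5a3, which takes up inositol as an osmolyte and which shares its locus with Mrps6 on the same strand, fell less, from 146 ± 18.6 CPM (SD, n = 5) to 106 ± 22.4 CPM (SD, n = 12) with overlapping ranges (log2 fold change −0.47, SE 0.14, adjusted p = 0.00401).

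Facilitative sugar transporters of the Slc2 (GLUT) family let sugars flow down their gradient, and they split by gene, with 6 lower and 5 higher of 11. Slc2a2 (GLUT2), the basolateral exit for glucose and fructose in the early proximal tubule, read 126, 137, 138, 144 and 138 CPM in wild type and 31.04 to 77.7 CPM (median 49.5) with PBS (log2 fold change −1.43, SE 0.18, adjusted p = 9.8e-08). No PBS mouse reached the wild-type range. Slc2a1 (GLUT1; chr4:119108711-119137983, plus strand), the glucose carrier of most cell types, read 51.8, 53.6, 52.8, 49.3 and 53.05 CPM and 78.1 to 114 CPM (median 90.7) (log2 fold change 0.84, SE 0.08, adjusted p = 1.5e-09). Here every PBS mouse lay above every wild-type mouse. Slc2a6 (GLUT6), an intracellular form known from leukocytes, rose by the largest fold of any member, although its level stayed low. It went from 0.413, 1.01, 0.651, 0.484 and 0.662 CPM to 2.59 to 10.5 CPM (median 5.19) (log2 fold change 3.10, SE 0.44, adjusted p = 3.5e-07). Only 3 of the 5 wild-type mice reached 10 counts of Slc2a6, so it needed Pcy mice to meet the rule. Slc2a3 (0.99 ± 0.21, log2 fold change ± SE), Slc2a10 (0.99 ± 0.23) and the intracellular Slc2a8 (0.32 ± 0.09) also rose, with overlapping ranges. The urate carrier Slc2a9 and its relative Slc2a12 fell without overlap (−1.05 ± 0.12 and −1.25 ± 0.20). Slc2a9 read 26.3 ± 2.62 CPM (SD, n = 5) in wild type and 12.7 ± 1.49 CPM (SD, n = 12) with PBS. The fructose carrier Slc2a5 (−0.81 ± 0.15), the inositol carrier Slc2a13 (−0.75 ± 0.14) and the insulin-regulated Slc2a4 (GLUT4, −0.52 ± 0.10) fell as well. The 9 macrophage markers tested all rose, with a summed level of 179 to 199.8 CPM in wild type and 443 to 803 CPM with PBS, and the 8 lymphocyte markers all rose, from 6.47 to 11.98 to 31.7 to 44.5 CPM; their part in the Slc2a6 and Slc2a3 results was not tested.

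Apical amino acid carriers take up most filtered amino acids. Of 8, 5 fell, 1 rose and 2 did not pass the test. Slc6a19 (B0AT1), the main apical carrier of neutral amino acids, had the largest fall of all members. It read 343, 399, 269, 269 and 351 CPM in wild type and 38.2 to 178 CPM (median 91.8) with PBS (log2 fold change −1.76, SE 0.27, adjusted p = 1.6e-06), without overlap. Slc6a18 (B0AT3), its close relative further along the tubule, read 1050.4, 925, 662, 656 and 800.4 CPM and 654 to 1043 CPM (median 879) (log2 fold change 0.08, SE 0.12, adjusted p = 0.553). The Slc6a18 ranges overlapped almost fully, with 11 of 12 PBS mice inside the wild-type range. Slc3a1 (rBAT), the heavy chain that brings its light chains to the apical membrane and is mutated in cystinuria, read 1080.0, 939, 885, 899.9 and 1009 CPM and 397 to 668 CPM (median 517) (log2 fold change −0.86, SE 0.12, adjusted p = 1.8e-07). Its cystine-carrying light chain Slc7a9 fell from 167 ± 7.99 CPM (SD, n = 5) to 97.9 ± 22.8 CPM (SD, n = 12) (log2 fold change −0.77, SE 0.13, adjusted p = 4.5e-06). Slc7a13, another light chain, for cystine, aspartate and glutamate in the late proximal tubule, read 1331, 1257, 1176, 1243 and 1218 CPM and 259 to 815 CPM (median 550.0) (log2 fold change −1.29, SE 0.20, adjusted p = 9.8e-07). These 3 subunits each fell without overlap between groups. Of the paired imino acid carriers, Slc6a20b fell from 350.3 ± 14.3 CPM (SD, n = 5) to 152 ± 38.6 CPM (SD, n = 12) (log2 fold change −1.21, SE 0.16, adjusted p = 8.8e-08), while Slc6a20a read 20.9 ± 4.64 CPM (SD, n = 5) and 19.6 ± 2.34 CPM (SD, n = 12) (log2 fold change −0.10, SE 0.10, adjusted p = 0.373). The Slc6a20 genes are near copies of each other, and only uniquely mapped reads were counted, so their split is uncertain. Slc36a2, a proton-coupled glycine and proline carrier, rose from 0, 0.238, 0.177, 0.242 and 0.422 CPM to 0.139 to 5.40 CPM (median 0.709) (log2 fold change 2.45, SE 0.72, adjusted p = 0.00308), but no wild-type mouse reached 10 counts, so the gene entered through the Pcy groups, and the ranges overlapped.

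Basolateral carriers return amino acids to the blood, several as light chains of the heavy chain Slc3a2 (4F2hc). Of 5, 4 fell and 1 rose. Slc7a8 (LAT2) fell from 117, 139.9, 165, 162 and 153 CPM to 49.5 to 92.8 CPM (median 63.9) (log2 fold change −1.12, SE 0.15, adjusted p = 2.7e-07). Slc7a7 (y+LAT1), the exit for lysine and arginine that is mutated in lysinuric protein intolerance, fell from 265 ± 33.5 CPM (SD, n = 5) to 134 ± 34.2 CPM (SD, n = 12) (log2 fold change −0.98, SE 0.16, adjusted p = 2.4e-06). The heavy chain Slc3a2 fell less, from 202 ± 14.6 CPM (SD, n = 5) to 154 ± 15.2 CPM (SD, n = 12) (log2 fold change −0.40, SE 0.07, adjusted p = 1.2e-05), and in none of these 3 did the groups overlap. Slc7a6 (y+LAT2), a close relative of Slc7a7 found in many cell types, rose from 4.72, 11.3, 5.74, 5.09 and 7.35 CPM to 11.2 to 17.3 CPM (median 14.9) (log2 fold change 1.09, SE 0.16, adjusted p = 5.6e-07), with a single wild-type mouse, mouse 2, inside the PBS range. Slc38a3, the glutamine carrier that feeds ammonia production, fell from 70.3 ± 7.77 CPM (SD, n = 5) to 54.3 ± 9.88 CPM (SD, n = 12) with overlapping ranges (log2 fold change −0.37, SE 0.13, adjusted p = 0.00916).

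Among 19 further amino acid carriers, which mostly serve uptake by individual cells or lysosomes, 8 rose, 6 fell and 5 did not pass the test. The cationic amino acid carriers Slc7a1 and Slc7a2 rose. Slc7a1 (CAT1; chr5:148327410-148399904, minus strand), a widely expressed arginine and lysine carrier, read 9.61, 13.8, 9.23, 9.51 and 18.5 CPM in wild type and 23.4 to 45.1 CPM (median 34.5) with PBS (log2 fold change 1.46, SE 0.21, adjusted p = 5.5e-07), without overlap. Slc7a2 read 4.69 ± 1.57 CPM (SD, n = 5) and 10.6 ± 3.04 CPM (SD, n = 12) (log2 fold change 1.18, SE 0.23, adjusted p = 3.8e-05). The sodium-coupled glutamine carriers Slc38a2 and Slc38a1 rose too. Slc38a2 read 62.3, 72.9, 54.01, 57.4 and 57.3 CPM and 86.7 to 129 CPM (median 104) (log2 fold change 0.81, SE 0.10, adjusted p = 3.7e-08), without overlap, and Slc38a1 read 2.97 ± 0.382 CPM (SD, n = 5) and 5.98 ± 1.35 CPM (SD, n = 12) (log2 fold change 1.01, SE 0.19, adjusted p = 2.6e-05). Slc7a12 rose at a low level, from 1.23 ± 0.358 CPM (SD, n = 5) to 4.52 ± 1.19 CPM (SD, n = 12) (log2 fold change 1.88, SE 0.27, adjusted p = 4.7e-07). The large neutral amino acid carrier Slc7a5 (LAT1; 0.40 ± 0.16, log2 fold change ± SE) and the cystine-glutamate exchanger Slc7a11 (1.45 ± 0.50) rose with overlapping ranges, and Slc7a11 likewise reached 10 counts in no wild-type mouse and entered through the Pcy groups. On the lower side were Slc6a15, a neutral amino acid carrier (−1.31 ± 0.16), and Slc36a1, a proton-coupled carrier of the lysosome (−0.92 ± 0.12). Slc36a1 read 246, 251, 246, 242 and 223 CPM in wild type and 93.3 to 168 CPM (median 125) with PBS, so that no PBS mouse reached the wild-type range. Slc38a10 (−0.43 ± 0.07), Slc38a7 (−0.21 ± 0.06), Slc38a4 (−0.72 ± 0.27) and Slc6a7 (−0.99 ± 0.26) fell and Slc6a17 (0.29 ± 0.07) rose, while Slc36a4 (−0.35 ± 0.17), Slc38a6 (0.03 ± 0.06), Slc38a9 (−0.13 ± 0.07), Slc7a3 (0.63 ± 0.30) and Slc7a4 (0.24 ± 0.14) did not pass.

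The 6 remaining Slc6 members carry osmolytes, creatine and neurotransmitters, and 3 fell, 1 rose and 2 did not pass. Slc6a6, the taurine carrier, fell from 604, 605, 602, 588 and 603 CPM to 378 to 504 CPM (median 438) (log2 fold change −0.46, SE 0.08, adjusted p = 1.4e-05), without overlap. The creatine carrier Slc6a8 (−0.29 ± 0.06, log2 fold change ± SE) and Slc6a13 (−0.40 ± 0.08) fell as well, and the glycine carrier Slc6a9 (0.16 ± 0.07) rose slightly. Slc6a12, the betaine carrier of the renal medulla, read 6.19 ± 3.73 CPM (SD, n = 5) in wild type and 5.90 ± 2.03 CPM (SD, n = 12) with PBS (log2 fold change −0.07, SE 0.30, adjusted p = 0.846), and its wild-type mice spread from 2.65 to 11.3 CPM. The serotonin carrier Slc6a4 did not pass (−0.35 ± 0.19). Of the genes that share only a name, Slc7a6os (0.15 ± 0.06) and Slc2a4rg-ps (0.40 ± 0.09) rose slightly.

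Index series were then taken separately. In series 1 alone, with 4 PBS and 2 wild-type mice, 55 of the 56 called members had the same sign as over all mice, Slc6a9 being the exception, and 44 passed the test. In series 2, also with 4 and 2 mice, all 56 had the same sign and 36 passed. Series 3 holds 1 wild-type mouse and was not fitted alone for this comparison. When each mouse was left out in turn, 17 of 21 rises and 34 of 35 falls held in all 31 fits. Besides Slc5a1, the call of Slc7a5 was lost without wild-type mouse 2, 3 or 4 (adjusted p from 0.06 to 0.0906), that of Slc7a6os without wild-type mouse 3 or 4 (0.0679 and 0.0887), that of Slc38a4 without wild-type mouse 5 (0.171) and that of Slc6a9 without PBS mouse 3, 5, 8, 9 or 10 or wild-type mouse 3, 4 or 5 (0.058 to 0.138).

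Genes that work with these carriers, from a list of 22 partners, regulators and related carriers outside the families, were mostly lower too. Of 21 tested, 15 fell and 2 rose, where 36.6% and 37.7% of all genes did. Tmem27 (collectrin), which brings Slc6a19 and Slc6a18 to the brush border, had a mean ± SD of 1366 ± 121 CPM over the 5 wild-type kidneys, 827 ± 215 CPM over the 12 given PBS and 1014 ± 159.7 CPM over the 14 given RGLS4326 (PBS against wild type, log2 fold change −0.72, SE 0.14, adjusted p = 5.1e-05). Pdzk1, the scaffold of Slc34a1 and other apical carriers, had a mean ± SD of 1765 ± 143 CPM over the 5 wild-type kidneys, 833 ± 181 CPM over the 12 given PBS and 1042 ± 233 CPM over the 14 given RGLS4326 (log2 fold change −1.08, SE 0.14, adjusted p = 1.4e-07). Kl (Klotho), the FGF23 coreceptor, fell by 1.05 (SE 0.15), Pth1r, the parathyroid hormone receptor, by 0.67 (SE 0.09) and Xpr1, a phosphate exporter, by 1.12 (SE 0.11) on the log2 scale. Txnip, an arrestin-like protein that limits glucose uptake through Slc2a1, rose by 0.47 (SE 0.11).

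Markers of the cell types in the kidney moved with the carriers. All 18 proximal tubule markers fell between wild type and PBS (median −1.11 on the log2 scale), and the summed ranges of the groups did not overlap. The 8 collecting duct markers all rose, with a summed level of 652 to 990.4 CPM in wild type and 1694 to 3558 CPM with PBS. Of 9 fibroblast markers 7 rose, and of 6 thick limb and distal tubule markers 3 fell and 1 rose. Of all genes tested, 37.7% rose and 36.6% fell. No marker list had a gene at 0 in all mice of a group. The part of the cell makeup in the carrier results was not tested.

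Between RGLS4326 and PBS in Pcy/CD1 mice, few members differed. None of the groups used here received a control oligonucleotide. Inhibition of the miR-17 family and other effects of the injected oligonucleotide therefore cannot be told apart. Of 65 members, 5 rose (7.69%, where 9.15% of all genes tested did) and 2 fell (3.08%, where 6.66% did). The share that rose was near that of all genes. With DESeq2 11 members rose (16.9%, where 12.4% of all genes did). With 1 mouse left out, 3 to 15 members rose and 2.43% to 14.5% of all genes. The 2 fits with 15 members (23.1%) had 12.4% and 14.5% of all genes. Without treated mouse 9, 3 members rose (4.62%) and 2 fell (3.08%), near the 4.66% and 3.48% of 15166 genes in the same fit, with a median log2 fold change of 0.09 over the members and −0.01 over all genes. With a change beyond 0.5 on the log2 scale required, 0 members rose and 1 fell, by edgeR and by DESeq2, where 0.935% and 1.22% of all genes did; at an unadjusted p under 0.05 1 member rose and 2 fell beyond that size. The median log2 fold change was 0.12 over the members, with 43 positive and 22 negative, and −0.00 over all genes. This comparison and the previous one share the PBS mice.

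The smallest adjusted p was that of Slc5a10, the mannose and fructose cotransporter with an 8mer seed match. It ran from 119 to 195 CPM (median 169) with PBS and 175 to 255 CPM (median 209.8) with RGLS4326 (log2 fold change 0.35, SE 0.07, adjusted p = 0.00629). All 14 treated mice lay above the PBS median, although the groups overlapped. Slc36a1, the lysosomal amino acid carrier, ran from 93.3 to 168 CPM (median 125) with PBS and 118 to 218 CPM (median 165) with RGLS4326 (log2 fold change 0.41, SE 0.09, adjusted p = 0.0113), with 13 of 14 treated mice above the PBS median. Slc2a4 (GLUT4) ran from 25.1 to 33.4 CPM (median 29.3) with PBS and 27.5 to 51.1 CPM (median 34.3) with RGLS4326 (log2 fold change 0.27, SE 0.07, adjusted p = 0.0205), again with 13 of 14 above. These 3 genes, Slc5a10, Slc36a1 and Slc2a4, are 3 of the 4 members with an 8mer match, and all lie on chromosome 11. Among all 618 genes tested with such a match, 105 rose with treatment (16.99%) and 27 fell. The other member with an 8mer, Slc7a2, had a log2 fold change of −0.29 ± 0.15 (± SE, adjusted p = 0.168).

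Slc6a20b, the imino acid carrier, ran from 98.5 to 201 CPM (median 149) with PBS and 133 to 305 CPM (median 184) with RGLS4326 (log2 fold change 0.36, SE 0.12, adjusted p = 0.0421). Slc5a8, the monocarboxylate carrier, ran from 65.1 to 202 CPM (median 131) with PBS and 106 to 279.7 CPM (median 159.7) with RGLS4326 (log2 fold change 0.44, SE 0.15, adjusted p = 0.0486). Neither has a seed match in the 3′UTR searched. On the lower side, Slc2a1 (GLUT1) ran from 78.1 to 114 CPM (median 90.7) with PBS and 62.7 to 93.2 CPM (median 82.1) with RGLS4326 (log2 fold change −0.24, SE 0.05, adjusted p = 0.0106). A single treated mouse lay above the PBS median of Slc2a1. Slc7a1 (CAT1) ran from 23.4 to 45.1 CPM (median 34.5) with PBS and 12.3 to 31.9 CPM (median 23.1) with RGLS4326 (log2 fold change −0.53, SE 0.14, adjusted p = 0.0209), and all 14 treated mice were below the PBS median. Slc7a1 holds a 7mer match and was the only member with a match to pass the test as lower. Of the others with a 7mer, Slc7a11 had a log2 fold change of −0.53 (adjusted p = 0.204), Slc6a15 0.34 (adjusted p = 0.0532) and Slc6a9 0.00 (adjusted p = 0.983).

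**Figure D3:**
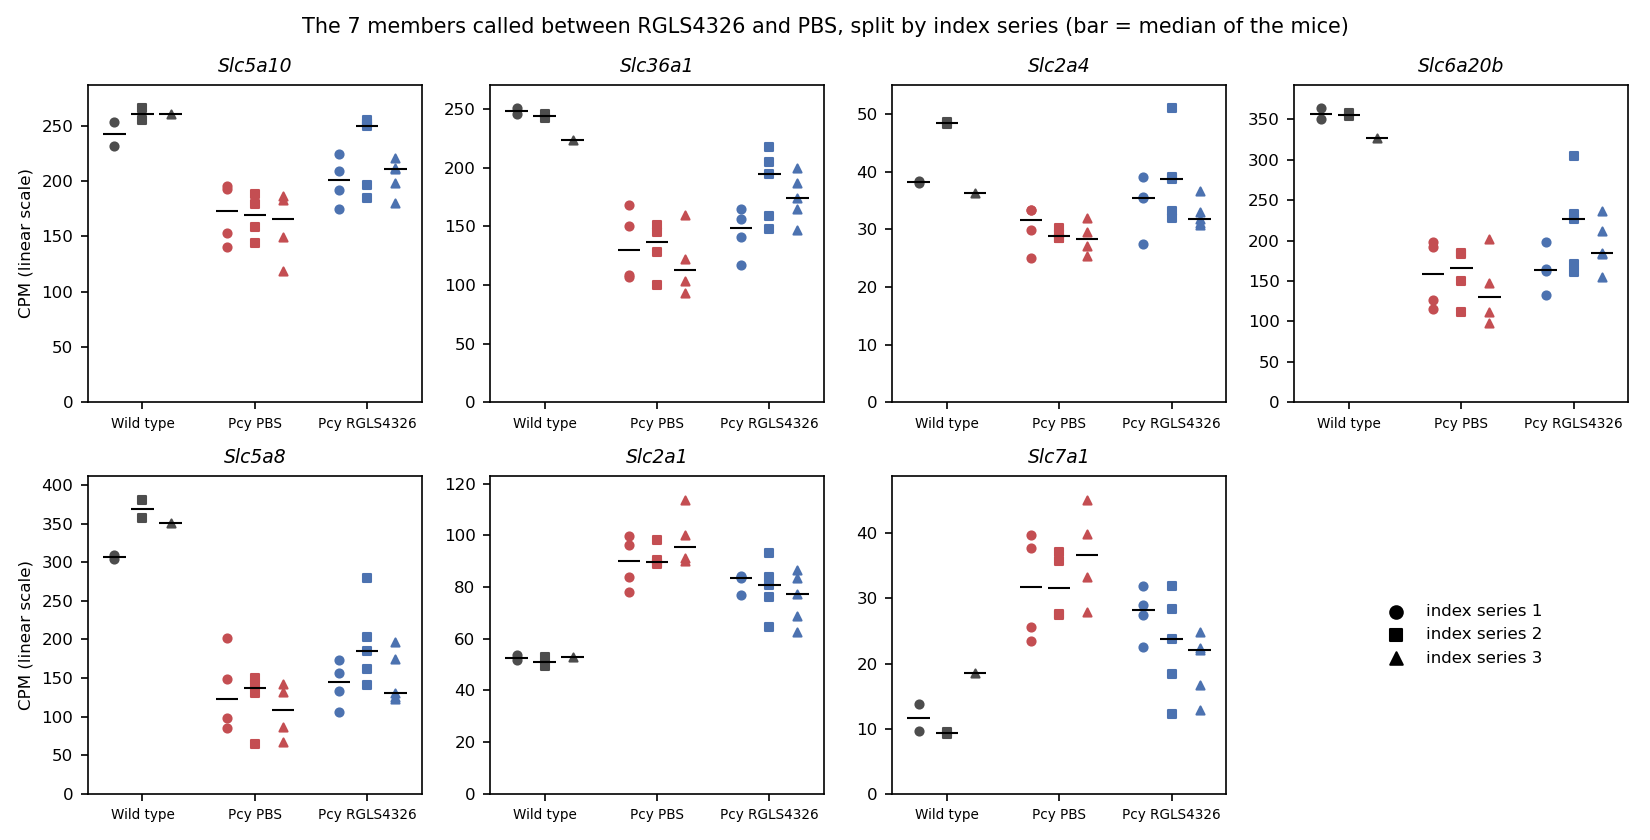
CPM (linear axes from 0) of the 7 members called between RGLS4326 and PBS, split by index series, with a symbol per mouse and a bar at the median. The log2 fold change of each member has the same sign in the 3 series and is smallest in series 1, from 0.06 for Slc6a20b to 0.23 for Slc5a10 among those that rose.

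The call of Slc5a10, Slc36a1, Slc2a4 and Slc2a1 held in each of the 31 fits that left out 1 mouse. Slc7a1 kept its call in 30 of them, Slc6a20b in 18 and Slc5a8 in 12. Without treated mouse 9, Slc5a10 (log2 fold change 0.33, adjusted p = 0.0103), Slc36a1 (0.37, 0.0178), Slc2a4 (0.22, 0.0289), Slc2a1 (−0.22, 0.0166) and Slc7a1 (−0.47, 0.0314) passed, and Slc6a20b (0.30, 0.0763) and Slc5a8 (0.36, 0.0903) did not. The number of members that rose was 3 without PBS mouse 2, 3, 5, 9 or 10 or treated mouse 3, 6, 8, 9, 10 or 13, 8 without PBS mouse 1 or treated mouse 12 or 14, 9 without treated mouse 4 or 5, 11 without PBS mouse 4 or treated mouse 11, 12 without PBS mouse 7 or 8, and 15 without PBS mouse 12 or treated mouse 2. The share of all genes that rose was 2.43% to 5.82% in the fits with 3 members and 9.39% to 14.5% in those with 8 or more. The number that fell was 1 without PBS mouse 10 (1.54%, where 1.65% of all genes fell). It was 4 without PBS mouse 4 (6.15%, against 10.9%) and 6 without treated mouse 2 (9.23%, against 11.9%). Within index series the 7 members kept their direction. The Slc5a10 log2 fold change was 0.23, 0.44 and 0.36 in series 1, 2 and 3, that of Slc36a1 was 0.12, 0.50 and 0.54, and that of Slc7a1 was −0.19, −0.48 and −0.89. No member passed the edgeR test in a single series, but 0% of all genes did so in each, so this was not particular to the members. At an unadjusted p under 0.05, 1, 8 and 7 members were higher in series 1, 2 and 3. So were 0.966%, 10.9% and 9.66% of all genes. At the same limit 0, 2 and 6 members were lower, as were 0.874%, 8.68% and 10.04% of all genes.

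Of the members at high levels or with large falls in disease, Slc34a1, Slc5a2, Slc7a13, Slc5a12, Slc6a19 and Slc2a2 did not pass the test between RGLS4326 and PBS. Slc34a1 ran from 2821 to 7041 CPM (median 4031) in treated mice (log2 fold change 0.35, SE 0.14, adjusted p = 0.071). Slc5a2 ran from 293 to 608 CPM (median 415) (log2 fold change 0.33, SE 0.12, adjusted p = 0.052), Slc7a13 from 447 to 1140.0 CPM (median 621) (log2 fold change 0.43, SE 0.15, adjusted p = 0.0505) and Slc5a12 from 114 to 368 CPM (median 219) (log2 fold change 0.51, SE 0.20, adjusted p = 0.0741). Slc6a19 ran from 68.3 to 264 CPM (median 124) (log2 fold change 0.39, SE 0.22, adjusted p = 0.189) and Slc2a2 from 38.8 to 127 CPM (median 62.2) (log2 fold change 0.36, SE 0.14, adjusted p = 0.0753). Mouse 9 was the highest treated mouse for all 6 of these genes. Without it the highest treated mouse read 5228 CPM for Slc34a1, 511 CPM for Slc5a2, 845 CPM for Slc7a13, 322 CPM for Slc5a12, 192 CPM for Slc6a19 and 81.4 CPM for Slc2a2. The log2 fold change without mouse 9 was 0.27, adjusted p = 0.138 for Slc34a1, 0.28, adjusted p = 0.0937 for Slc5a2, 0.35, adjusted p = 0.0935 for Slc7a13, 0.42, adjusted p = 0.137 for Slc5a12, 0.26, adjusted p = 0.372 for Slc6a19 and 0.25, adjusted p = 0.154 for Slc2a2. Of these 6, Slc34a1, Slc5a2 and Slc7a13 were among the 11 members that passed as higher with DESeq2 over all mice. Slc34a2 read 27.8 ± 12.3 CPM (SD, n = 14) with RGLS4326 against 36.6 ± 10.4 CPM (SD, n = 12) with PBS (log2 fold change −0.39, SE 0.21, adjusted p = 0.17; without mouse 9 −0.31, adjusted p = 0.225). The sugar carrier Slc5a1 read 78.7 ± 7.82 CPM (SD, n = 14) and 78.6 ± 6.94 CPM (SD, n = 12) (log2 fold change 0.00, SE 0.05, adjusted p = 0.985). Of the 18 proximal tubule markers outside the families, 8 rose with treatment (as did 9.15% of all genes), and of 8 collecting duct markers 7 fell (as did 6.66% of all genes), with a summed level of 1694 to 3558 CPM with PBS and 960.4 to 2452 CPM with RGLS4326. Without mouse 9, 2 of the proximal tubule markers rose and 5 of the collecting duct markers fell, as 4.66% of all genes rose and 3.48% fell in the same fit. The smallest adjusted p was 0.173 among macrophage, 0.0575 among lymphocyte, 0.165 among fibroblast and 0.148 among injury markers. Among the partner genes 8 of 21 rose and 1 fell, against the same 9.15% and 6.66% of all genes. Txnip fell (log2 fold change −0.28, SE 0.08, adjusted p = 0.0289); Pdzk1 (log2 fold change 0.32, SE 0.11, adjusted p = 0.0468) and Kl (log2 fold change 0.33, SE 0.12, adjusted p = 0.0489) were among those that rose. Without mouse 9, 2 partner genes rose, Slc17a1 and Xpr1, and Txnip fell, against 4.66% and 3.48% of all genes. The part of the cell makeup in these results was not tested.

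Treated kidneys still differed from wild type. Of 65 members, 32 were lower (32.4% of all genes tested) and 17 higher (32.5%) with RGLS4326 than in wild type. Without Slc36a2 and Slc7a11, which met the rule only through Pcy mice, 32 of 63 members were lower and 16 higher. Slc34a1 remained lower by a log2 fold change of −0.87 (SE 0.17, adjusted p = 9.8e-05), Slc6a19 by −1.37 (SE 0.27, adjusted p = 6.8e-05) and Slc5a2 by −0.51 (SE 0.15, adjusted p = 0.00479). Slc2a1 remained higher (log2 fold change 0.60, SE 0.08, adjusted p = 3.4e-07), as did Slc34a2 (log2 fold change 1.87, SE 0.33, adjusted p = 2.0e-05) and Slc2a6 (log2 fold change 2.52, SE 0.43, adjusted p = 1.4e-05). Slc5a10, the member with the smallest adjusted p for treatment, was −0.26 on the log2 scale from wild type (SE 0.09, adjusted p = 0.016), and 3 of 14 treated mice lay inside its wild-type range. Without treated mouse 9, 33 members were lower and 19 higher than in wild type, as were 33.5% and 33.95% of all genes. In index series 2 alone, with 5 treated and 2 wild-type mice, 0 were lower and 3 higher by edgeR, as were 0.632% and 1.95% of all genes. At an unadjusted p under 0.05, 20 members were lower and 10 higher there, as were 13.4% and 18.4% of all genes. The heatmap shows this by mouse.

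**Figure D4:**
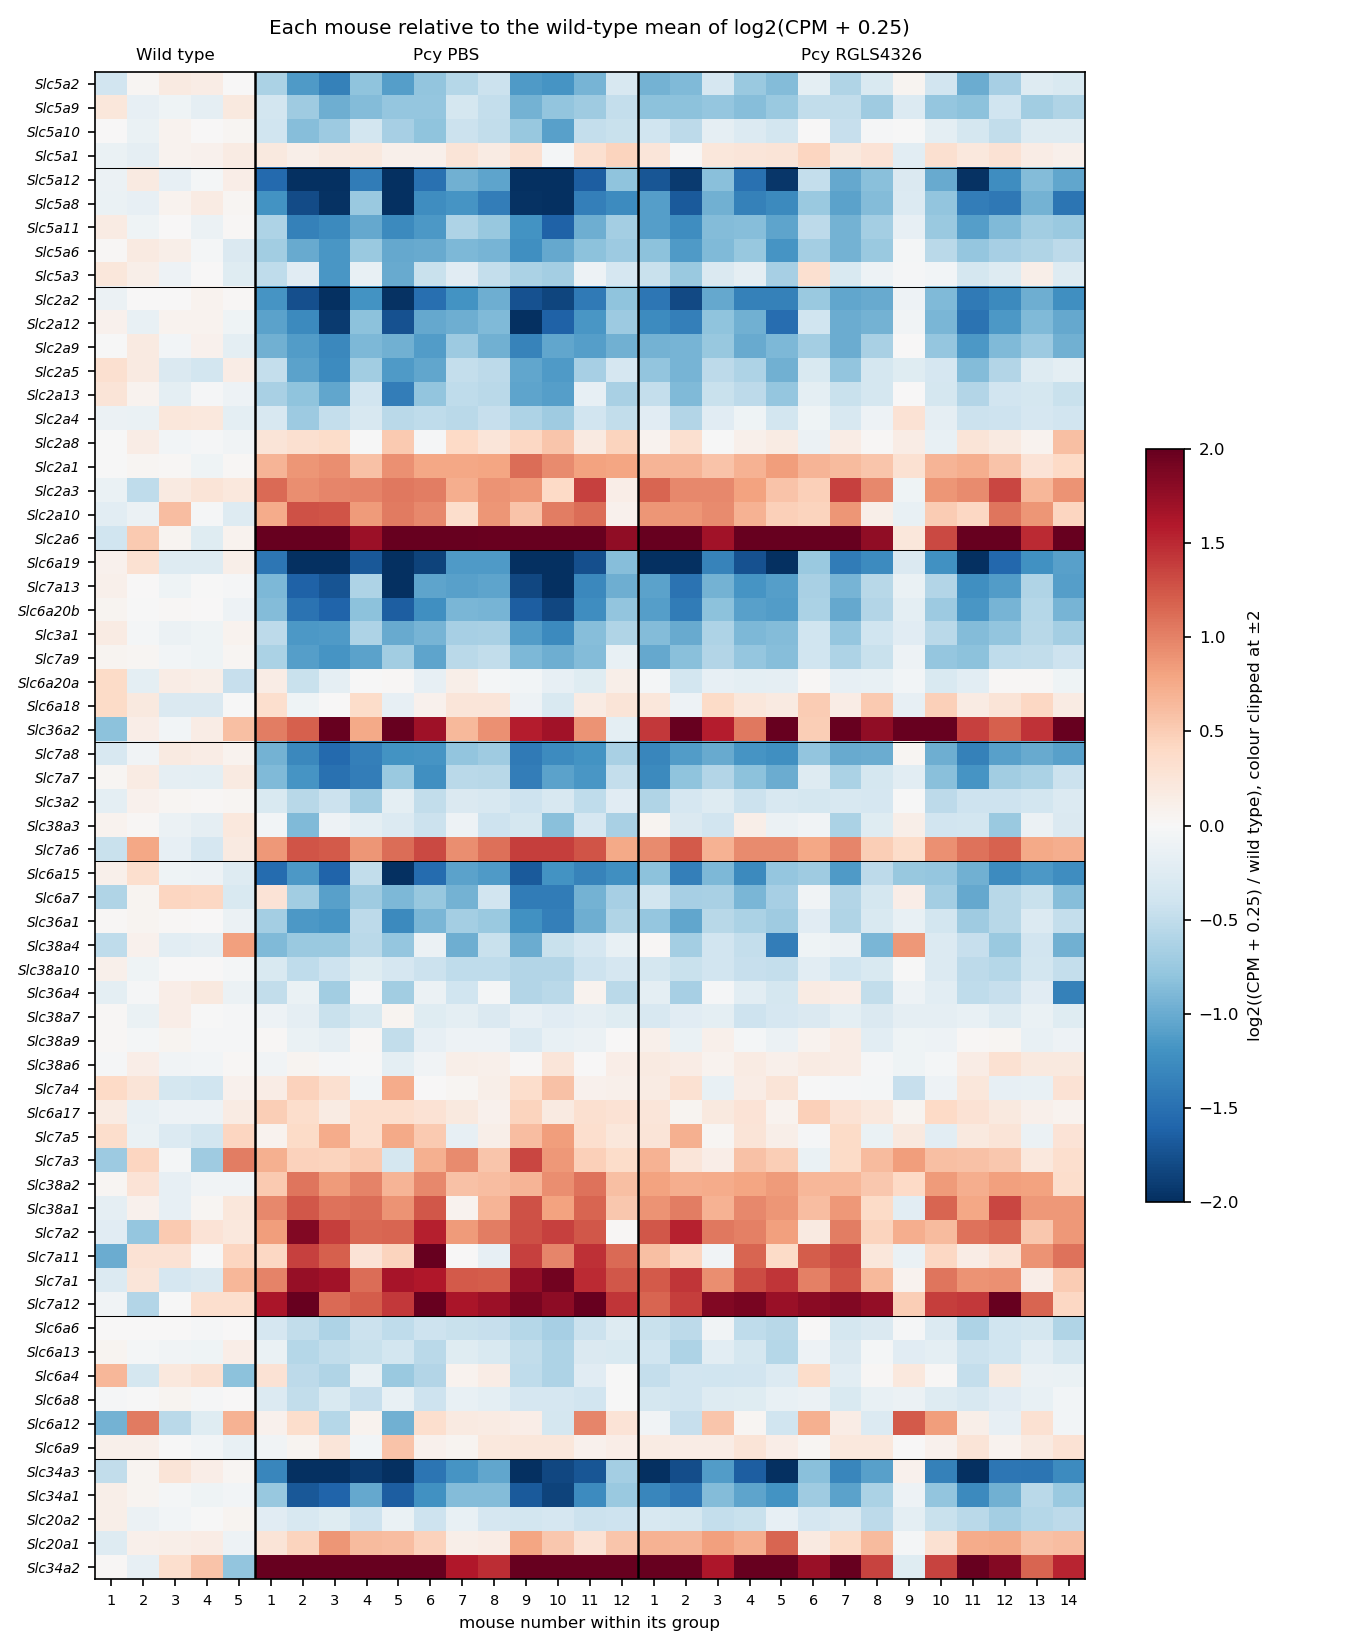
Colour gives log2 of (CPM + 0.25) in each mouse (columns) relative to the wild-type mean for the 63 transporter members (rows, by role), clipped at ±2. Most Pcy columns are blue for proximal tubule carriers and red for Slc34a2, Slc2a6 and Slc7a12, and treated mouse 9 is pale in most rows, with 55 of the 65 members nearer to the wild-type than to the PBS mean.

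RefSeq promoters of all members (250 bases before to 50 after the start) were searched for short motifs of the tubule factors HNF1 (GTTAAT) and HNF4 (CAAAGTCC) on both strands. Promoters were found for 44 of the 65 members. The HNF1 motif occurred in 7 of these 44 genes (Slc34a1, Slc36a1, Slc3a1, Slc5a10, Slc6a13, Slc6a20a and Slc7a7), against 8.24% of 27025 genes with a promoter, tested or not. The HNF4 motif occurred in 2, Slc34a1 and Slc3a1, against 1.63%. Among tested genes with a promoter, 690 of 11266 held the HNF1 motif. Of the 7 genes with the HNF1 motif, 6 fell in disease, and Slc6a20a did not pass the test. Of the 44 members with a promoter 24 fell, against 37.7% of 11266 tested genes with a promoter, and of 690 tested genes with the motif 41.6% fell. Both motifs lie in the promoters of Slc34a1 and Slc3a1, shown with the motif letters of either strand in capitals.
Slc34a1, GRCm38.p6 chr13:55399398-55399697, plus strand: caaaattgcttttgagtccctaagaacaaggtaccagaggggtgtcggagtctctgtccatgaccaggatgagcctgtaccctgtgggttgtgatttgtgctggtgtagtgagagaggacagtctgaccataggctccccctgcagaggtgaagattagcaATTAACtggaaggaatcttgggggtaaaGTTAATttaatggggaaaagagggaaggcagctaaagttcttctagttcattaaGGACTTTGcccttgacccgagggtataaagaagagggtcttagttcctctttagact
Slc3a1, GRCm38.p6 chr17:85028097-85028396, plus strand: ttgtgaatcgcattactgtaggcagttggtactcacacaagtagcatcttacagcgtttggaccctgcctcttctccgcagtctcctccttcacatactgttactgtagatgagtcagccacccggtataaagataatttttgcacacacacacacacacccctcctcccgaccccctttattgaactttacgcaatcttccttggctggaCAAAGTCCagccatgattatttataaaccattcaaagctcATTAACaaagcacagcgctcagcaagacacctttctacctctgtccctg
These matches describe letters in a window and say nothing of whether a factor binds there. A further motif of the amino acid response, TGATGNAA, occurred in Slc7a11 and Slc7a7 (4.51% of genes), and a TATA motif, TATAAA, in 6 of the 44 members (15.7% of genes).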

How the data were processed

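Kidney polyA RNA of 31 mice was sequenced from stranded libraries as paired reads. The authors trimmed reads with Trim Galore, used STAR for mapping to GRCm38, and counted unique hits per gene with HTSeq (0.6.1 in the submitters' processing notes); the deposited values are raw counts, with no normalization. The strand setting, STAR version and annotation are not given in the sources used here. Lines for reads on no gene (8.39 to 10.1% of all) and other summary lines were left out.

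Genes passing edgeR's filterByExpr (15185) were scaled by TMM and fitted with edgeR 4.0.16 (R 4.3.3) in a quasi-likelihood model of all 31 mice without covariates, with Benjamini-Hochberg adjustment over all genes; SE was taken as the size of the log2 fold change over the root of F. The scripts were tested on simulated data. Whether mice of a group shared litters is not stated, so p-values measure the spread between these mice. Positions are from GENCODE vM21 (23144 of 23509 symbols matched). The members, lists and motifs were chosen with earlier results of these data known. Named members are a fixed set plus, in each of the PBS and RGLS4326 comparisons, the 8 largest called rises and falls with a mean of at least 1 CPM and the 8 smallest treatment p-values; others are named as exceptions or for completeness of a role, after their values were seen. Alternatives covered scaling, filter, DESeq2 1.42.0, groups in the model, index series, replicate block, a size threshold and each mouse left out; merging wild-type mice 3 and 4, and leaving out Slc36a2 and Slc7a11, were added after seeing the data.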

Additional observations from a re-analysis of the deposited data

Results flagged for a closer look

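For each member the gap between the highest or lowest mouse and its nearest neighbour, over the group's range, was set against Dixon's limit of 0.710 in the 5 wild-type mice. The PBS and RGLS4326 groups, with 12 and 14 mice, were not tested in this way. In 4 of 65 members a wild-type mouse passed this limit, where chance gives about 1 in 20. Slc3a2 read 177.3 CPM in mouse 1 and 206 to 216 CPM in the other 4, still above the highest PBS mouse. Slc2a10 read 1.656 CPM in mouse 3 against 0.783 to 0.969, Slc2a8 read 26.85 CPM in mouse 2 against 22.9 to 23.9, and Slc6a6 read 587.9 CPM in mouse 4 against 602 to 605. The fall of Slc3a2 and Slc6a6 and the rise of Slc2a10 and Slc2a8 in disease kept their calls without each of these mice.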

How the results depend on the processing

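Among members, the falls in disease (35) numbered 25 to 37 and the rises (21) 12 to 21 under all alternatives with the same threshold. Rises were 12 in index series 2 alone (23.4% of all genes) and 13 with a log2 fold change past 0.5 also required (24.6%). Leaving out 1 mouse gave 35 to 37 falls (34.9% to 36.9% of all genes) and 18 to 21 rises (36.2% to 38.1%). Rises with RGLS4326 (5, where 9.15% of all genes rose) numbered 11 with DESeq2 (12.4%), 3 without a filter on low counts (5.11%) and 3 with only the 2 groups compared (5.25%). They numbered 0 with the size threshold (0.935%), 0 in index series 1, 2 or 3 alone (0% in each) and 3 to 15 with 1 mouse left out (2.43% to 14.5%). Falls (2, where 6.66% of all genes fell) numbered 1 with the size threshold (1.22%), 0 in each series alone (0% in each) and 1 to 6 with 1 mouse left out (1.65% to 11.9%). Between RGLS4326 and wild type, index series 2 alone gave 3 rises (17) and 0 falls (32), where 1.95% and 0.632% of all genes did. Leaving out 1 mouse gave 16 to 19 rises (30.4% to 33.95% of all genes) and 30 to 33 falls (29.9% to 33.5%). A series alone has fewer mice; the causes of the other changes were not tested. With the replicate block, 2 members rose (3.08%) and 0 fell with RGLS4326, where 1.32% and 0.678% of all genes did. At an unadjusted p under 0.05, 15 members rose and 6 fell in that fit, where 17.4% and 13.9% of all genes did. Numbers do not pair the mice, since same-numbered PBS and treated mice deviated with a mean correlation of −0.06 over 12 pairs (from −0.42 to 0.43). Counting wild-type mice 3 and 4 as 1 mouse, chosen after seeing the data, gave 18 rises and 35 falls in disease. Slc6a9 reversed its sign in index series 1 alone, and no other member called in disease or with RGLS4326 against PBS did so within a series. Genes near 1 CPM, such as Slc36a2 and Slc7a11, are limited by depth.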

Other observations

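The amino acid response, which cells use when amino acids run short and which induces several carriers through Atf4, was followed by a list of 10 genes outside the families. In disease 7 rose and 2 fell, where 37.7% and 36.6% of all genes did. Atf4 itself had a mean ± SD of 101 ± 5.24 CPM over the 5 wild-type kidneys, 134 ± 12.5 CPM over the 12 given PBS and 122 ± 10.7 CPM over the 14 given RGLS4326 (PBS against wild type, log2 fold change 0.40, SE 0.07, adjusted p = 5.1e-06). Asns, which makes asparagine, had a mean ± SD of 4.07 ± 0.386 CPM over the 5 wild-type kidneys, 10.4 ± 3.29 CPM over the 12 given PBS and 8.18 ± 2.81 CPM over the 14 given RGLS4326 (log2 fold change 1.36, SE 0.25, adjusted p = 1.6e-05), and Atf3 rose further (log2 fold change 2.55, SE 0.48, adjusted p = 2.4e-05). Sesn2 and Cth fell, by 0.73 (SE 0.10) and 0.81 (SE 0.14) on the log2 scale. The summed level of the list was 448 to 469 CPM in wild type and 363 to 418 CPM with PBS. With RGLS4326, 1 of the 10 fell, where 6.66% of all genes did. It was Phgdh of serine synthesis (log2 fold change −0.48, SE 0.15, adjusted p = 0.0344).

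Osmolyte carriers such as Slc6a12 and Slc5a3 answer to Nfat5, the factor of the renal medulla's response to salt. Of 5 osmotic response genes, 2 rose and 1 fell in disease, against the same shares of all genes, and with RGLS4326 their smallest adjusted p was 0.151. Nfat5 had a mean ± SD of 122 ± 10.6 CPM over the 5 wild-type kidneys, 146 ± 17.6 CPM over the 12 given PBS and 146 ± 17.5 CPM over the 14 given RGLS4326 (log2 fold change 0.26, SE 0.09, adjusted p = 0.0105 for disease). Hspa1b rose (log2 fold change 0.72, SE 0.22, adjusted p = 0.0041) and Hspa4l fell (log2 fold change −0.66, SE 0.11, adjusted p = 2.6e-06).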
